A study of Mus musculus with 22 samples.

Results

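The C/EBP family genes examined here were Cebpa, Cebpb, Cebpd, Cebpe and Cebpg, 5 of 21631 protein-coding genes on the autosomes and X. They were chosen by name, with earlier results of these data known. Every ChIP-seq peak inside one of them or within 200 kb of it was taken, 13 peaks of 3801 in all. ChIP-seq (chromatin immunoprecipitation with sequencing) was carried out in clone 11 of mpkCCD, mouse kidney cells of cortical collecting duct type. The cells were grown to confluence on permeable supports, kept without serum and hormones, and then treated for 30 min with 0.1 nM dDAVP, a vasopressin analog selective for the V2 receptor, or with its vehicle. The immunoprecipitated samples were C/EBP beta after dDAVP (2), C/EBP beta after vehicle (2), CREB1 after dDAVP (4) and CREB1 after vehicle (4). A further 10 samples were input chromatin without antibody. All came from the same line, which is 1 clone, and its collecting duct identity was not checked here because peak lists hold no expression values.

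The C/EBP proteins are leucine zipper factors that bind DNA as dimers, with each other or with related factors. C/EBP beta acts in acute phase, stress and differentiation programmes, and alternative starts of translation on its intronless gene give activating forms (LAP) and a shorter inhibitory form (LIP). Genes of the family are known to control each other: in mouse preadipocytes, C/EBP beta and C/EBP delta precede C/EBP alpha, and C/EBP alpha can act on its own gene. CREB, the factor that protein kinase A phosphorylates when cAMP rises, is known to act on CRE-like elements of the Cebpb promoter in other cell types. In this series C/EBP beta was the single family member immunoprecipitated, so the lists show where C/EBP beta was called at its own gene and at its relatives, and nothing of the binding of the other members.

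Each group was represented by 1 peak list. The peak names in the C/EBP beta lists are those of replicate 1, and how the second sample of each group entered its list is not known here. For C/EBP beta there were 2401 peaks after dDAVP and 209 after vehicle, and for CREB1 406 after dDAVP and 785 after vehicle. Read depth is unknown, and no list has replicate values, so every count below stands without an error and no treatment difference was tested. Because the C/EBP beta lists differ so much in length, a peak missing after vehicle is a peak not called there, and not shown to be an unoccupied site.

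The promoters of 3 family genes are given first, because they are where CREB and C/EBP sites of autoregulation would usually be sought. The 250 bases before the start of Cebpb (chr2:167688665-167688914, plus strand), Cebpa (chr7:35119043-35119292, plus strand) and Cebpg (chr7:35056567-35056816, minus strand) come from RefSeq on GRCm38.p6, the assembly that mm10 names. Of the 5 genes, 3 matched the promoter table. Capitals mark TGACG, the core of the CRE (cAMP response element), on either strand.
Cebpb: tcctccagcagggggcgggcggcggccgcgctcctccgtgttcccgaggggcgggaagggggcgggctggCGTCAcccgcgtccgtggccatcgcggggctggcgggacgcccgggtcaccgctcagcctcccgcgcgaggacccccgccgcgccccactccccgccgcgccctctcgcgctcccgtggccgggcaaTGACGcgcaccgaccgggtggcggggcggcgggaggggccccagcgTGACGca
Cebpa: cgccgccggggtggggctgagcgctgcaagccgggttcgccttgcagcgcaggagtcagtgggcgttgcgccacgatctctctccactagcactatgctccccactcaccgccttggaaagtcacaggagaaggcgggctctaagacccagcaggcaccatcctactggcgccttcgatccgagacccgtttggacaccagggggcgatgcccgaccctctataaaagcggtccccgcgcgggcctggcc
Cebpg: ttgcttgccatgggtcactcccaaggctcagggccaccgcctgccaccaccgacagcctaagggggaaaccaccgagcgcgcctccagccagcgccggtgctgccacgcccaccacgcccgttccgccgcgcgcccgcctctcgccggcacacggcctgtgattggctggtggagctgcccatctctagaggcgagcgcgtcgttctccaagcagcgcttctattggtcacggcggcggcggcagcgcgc
The Cebpb promoter held TGACG 3 times, beginning 180, 53 and 7 bases before the start. The first of these is read on the opposite strand. The Cebpa and Cebpg promoters held no TGACG. At least 1 TGACG was present in 17.9% of 32619 RefSeq promoters of the same length, and at least 3 in 0.690% (225 promoters). Promoters of 1 gene can overlap in that table. The Cebpb promoter was 81.6% G or C, against a median of 52.4% over all promoters. Neither these shares nor the shares with a peak given below were matched for that content.

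The full CRE (TGACGTCA), the C/EBP palindrome (TTGCGCAA), TTGCNNCAA and the C/EBP-ATF element (TTGCATCA) had 0 matches on either strand in these 3 promoters. TTGCNNCAA was planned as a looser C/EBP form, but it is a base longer than the palindrome and cannot match it. An 8-base C/EBP form (TTGCNNAA), which includes the palindrome and was added after the data were seen, had 0 as well. Over all promoters the shares with a match were 1.56% for the CRE and 0.166% for the palindrome. They were 1.75% for TTGCNNCAA, 0.776% for TTGCATCA and 9.62% for TTGCNNAA. TGACG is contained in the full CRE, so those counts overlap. A match is a run of letters, and a missing match says only that these letters are not in the window. The Cebpa promoter, for example, holds TTGCGCCA, which differs from the palindrome in a single letter. Such near matches were not counted, so the counts do not show that C/EBP sites are absent.

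No peak of any of the 4 lists covered a base of the Cebpb, Cebpa or Cebpg promoter. Among the 225 promoters with at least 3 TGACG, 34.7% overlapped a CREB1 peak after dDAVP and 45.8% after vehicle, against 1.32% and 2.59% of all promoters in the same order. Cebpb was thus among the promoters of this kind at which CREB1 was not called. None of the 5 genes had a CREB1 peak overlapping it, beside 2.03% of protein-coding genes after dDAVP and 3.8% after vehicle. The nearest CREB1 peak to Cebpb lay 673 kb away in both treatments, overlapping Ddx27, an RNA helicase gene. For C/EBP beta, 1.05% of all promoters overlapped a peak after dDAVP and 0.132% after vehicle.

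C/EBP beta was called at its own gene and repeatedly downstream of it after dDAVP. The Cebpb window held 6 C/EBP beta peaks after dDAVP and 1 after vehicle, and 0 CREB1 peaks after either treatment. All 6 lay inside the gene or past its 3' end, on the plus strand side away from the promoter, and the 200 kb before the gene held no peak of any list. A C/EBP beta peak lay in the gene or within 200 kb for 42.8% of protein-coding genes after dDAVP and for 5.86% after vehicle, so a single peak in a window of this size is common after dDAVP. A count of at least 6 was reached by 64 genes (0.296%), one of them the neighbour Tmem189, whose window held 6 as well.

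**Figure D1:**
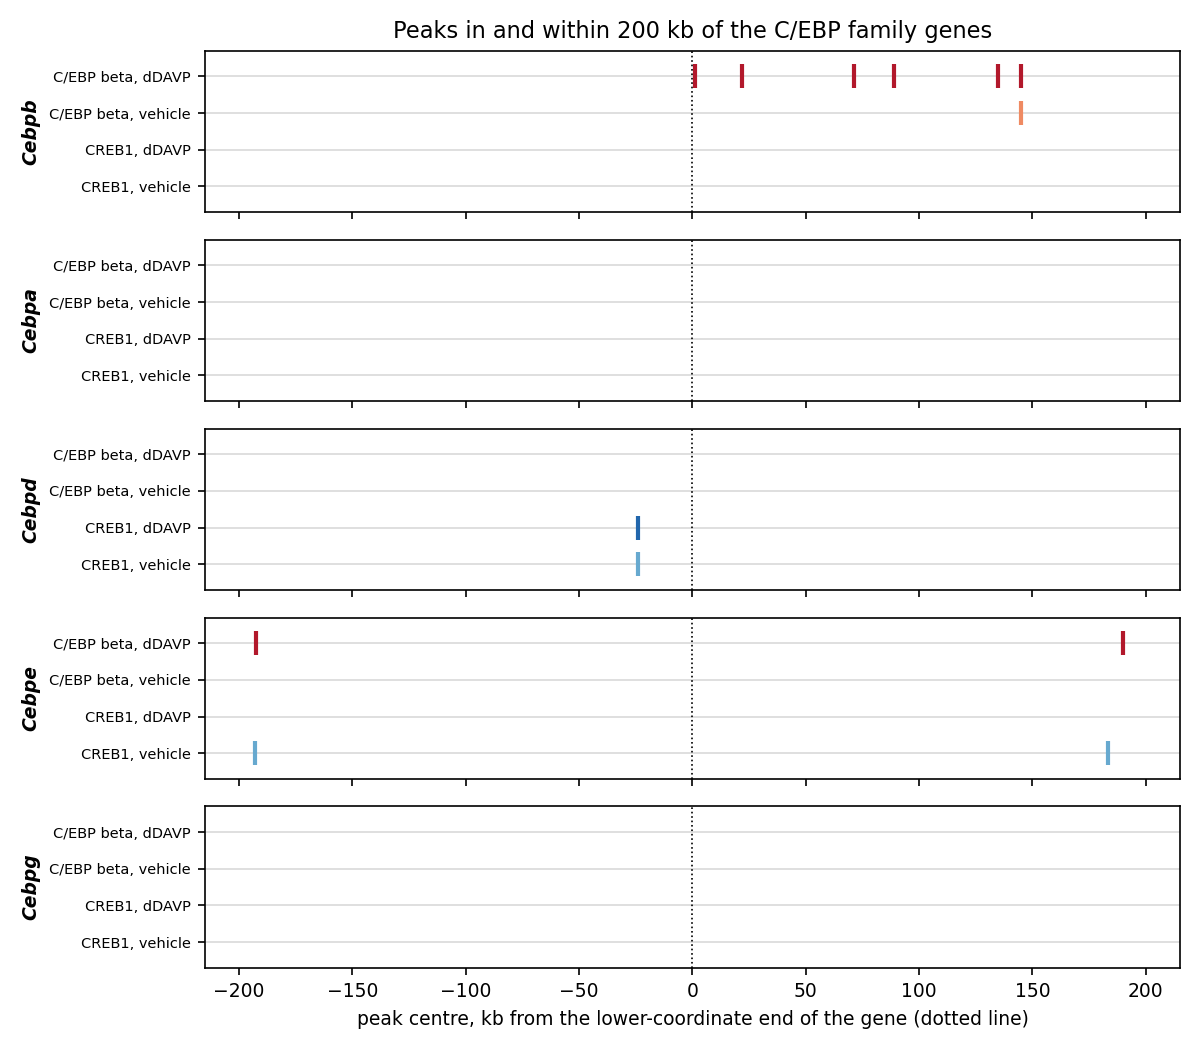
Peaks of the 4 lists in the windows of the 5 genes, with peak centres in kb from the lower-coordinate end of each gene (dotted line) and 1 row per list. Cebpb has 6 C/EBP beta peaks after dDAVP, 1 inside the gene and 5 past it, and 1 after vehicle; Cebpa and Cebpg have no peak of any list.

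The peak in Cebpb itself spanned 207 bp (chr2:167690070-167690276). It began 1155 bp after the gene's first base and ended 156 bp before its last, in a gene of 1518 bp, so it lay in the 3' part of the transcribed region. Its score, the authors' own value per peak on an unstated scale, was 101, rank 1973 of 2401, against a list median of 197. Among all protein-coding genes, a C/EBP beta dDAVP peak overlapped 5.47%, and a vehicle peak overlapped 0.518%. The site inside the gene was therefore a low-scoring call of the longer list, and no vehicle peak overlapped it.

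The highest-scoring sites of the locus were distal. A peak of 396 bp (chr2:167759930-167760325) lay 69.5 kb past the gene and scored 1376, rank 69. A second, of 434 bp (chr2:167833497-167833930), lay 143 kb past the gene and scored 1378, rank 68. These scores were higher than those of 97.1% and 97.2% of the list, and the widths ranked 154 and 82 of 2401, where the median width was 266 bp. Both sites fell outside every annotated gene. In all, 26 genes (0.120%) had at least 2 of the 69 best-scoring dDAVP peaks in their window, a count made after the scores were seen. The limit of 69 was the rank of the lower-scoring of the 2 Cebpb sites, so Cebpb met it by construction.

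The other 3 peaks past the gene were weaker. A peak of 220 bp (chr2:167710625-167710844) lay 20.2 kb past Cebpb with a score of 88. A peak of 175 bp (chr2:167777575-167777749) lay 87.1 kb past it with a score of 56, inside the lncRNA genes Gm32287 and Gm14321. A peak of 171 bp (chr2:167823436-167823606) lay 133.0 kb past it with a score of 55. Their ranks were 2094, 2354 and 2366, so that 4 of the 6 peaks of the locus scored under the list median and 2 above it. The lowest score in the list was 30.

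**Figure D2:**
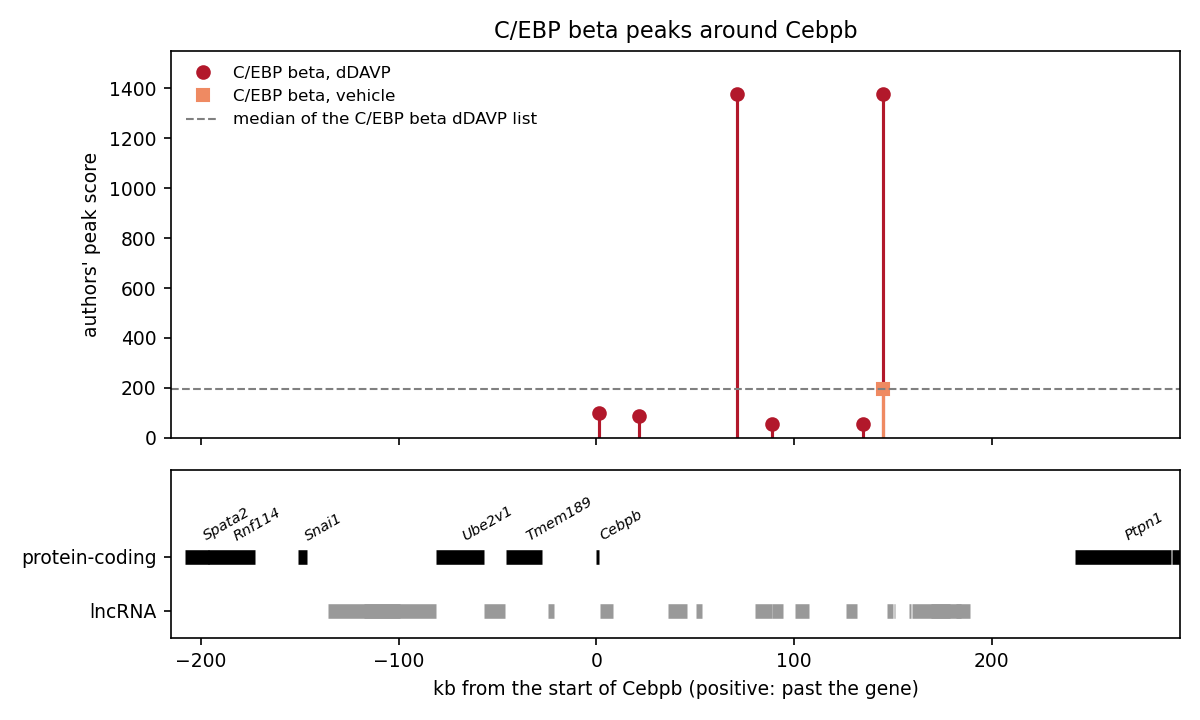
C/EBP beta peaks by position in kb from the start of Cebpb and by the authors' score (upper panel), with protein-coding and lncRNA genes below; the dashed line is the median score of the dDAVP list. The sites 71.2 kb and 145 kb from the start scored 1376 and 1378 after dDAVP, and the vehicle peak at the farther one scored 196; scores are comparable within a list only.

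The vehicle list held the farther of the 2 strong sites. Its peak (chr2:167833579-167833832, 254 bp) lay wholly within the dDAVP peak and scored 196, rank 55 of 209, above the vehicle median of 131. The site 69.5 kb past the gene had almost the same dDAVP score but no vehicle call. Of the 69 dDAVP peaks that scored at least 1376, 65 (94.2%) overlapped a vehicle peak, so that this site was 1 of 4 that did not. It ranked 4 among the 2192 dDAVP peaks without a vehicle overlap, whose median score was 179, against 1104 for the peaks with one. Whether the site differs between treatments beyond replicate spread was not tested, since the lists hold no replicate values.

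**Figure D3:**
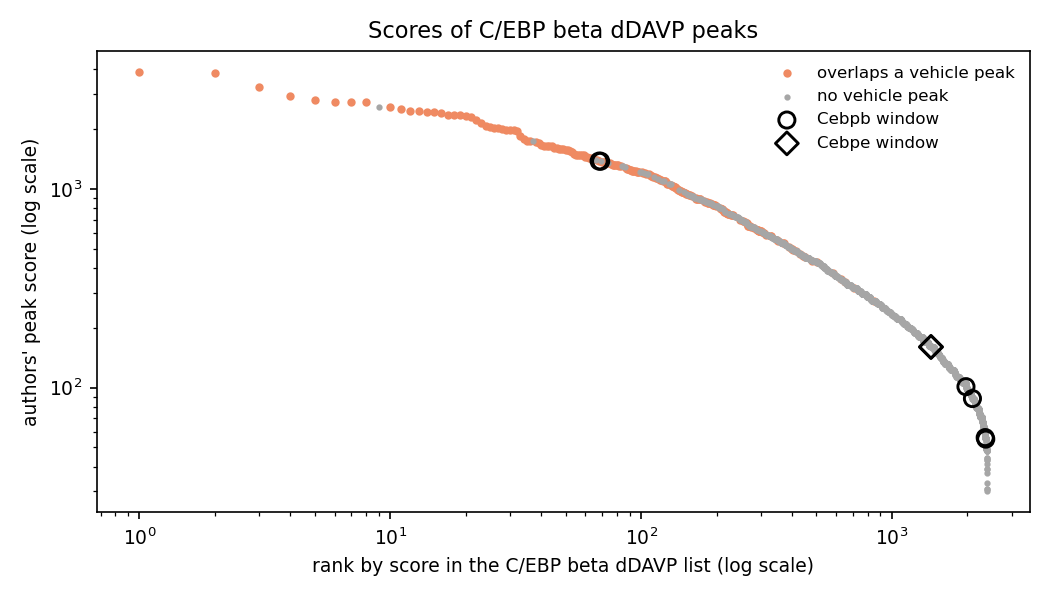
Authors' score against rank for the 2401 C/EBP beta dDAVP peaks (both axes logarithmic), coloured by overlap with a vehicle peak, with the 6 peaks of the Cebpb window and the 2 of the Cebpe window outlined. Cebpb peaks fall at ranks 68 and 69, whose outlines coincide, and at ranks 1973 to 2366; both Cebpe peaks tie at 1431.

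Over the 5 windows, 1 of 8 C/EBP beta dDAVP peaks overlapped a vehicle peak (12.5%, exact 95% interval 0.316 to 52.7), beside 209 of 2401 in the whole list (8.70%, 7.61 to 9.90). The intervals cover the counting of peaks alone and treat the peaks as independent. Of the 8 peaks, 6 lay in the Cebpb window and 2 in the Cebpe window. The whole-list count of 209 equals the length of the vehicle list, so this share depends on how short that list is. When the dDAVP list was reduced to its 209 best scores, the length of the vehicle list, the Cebpb window held 2 peaks after dDAVP and 1 after vehicle. The same 2 peaks were left when peaks under the median score were dropped, and the call inside the gene was then lost.

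The peaks lay in a stretch without other protein-coding genes. Past Cebpb, the next such gene is Ptpn1, a tyrosine phosphatase of insulin signalling, 240.3 kb away, and 13 lncRNA genes are annotated in between. The side before the gene is denser, with 5 protein-coding genes in the window, the nearest being Tmem189 at 27.4 kb. Cebpb was the nearest protein-coding gene for 4 of the 6 dDAVP peaks. The other 2, including the strong site at 143 kb, were nearer to Ptpn1, at 107 kb and 96.8 kb, as was the vehicle peak at 96.9 kb. The next C/EBP beta peak before the gene was 337 kb away, 2120 bp from B4galt5, a galactosyltransferase gene. No target gene can be assigned from distance alone.

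The 6 peaks spanned 144 kb, with gaps of 9.89 to 49.1 kb between neighbours. Of 2301 runs of 6 consecutive peaks in the dDAVP list, 13 spanned no more than this, at 4 separate loci, and the median run spanned 3616 kb. This comparison was chosen after the peaks were seen and has no test. Longer genes have longer windows. Among the 7742 genes of at most 10 kb, 24 (0.310%) reached 6 peaks and 7 of them had more. Of these 7, 5 held 14 peaks each. Neighbouring genes can share peaks, so counts of genes are not counts of separate loci.

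**Figure D4:**
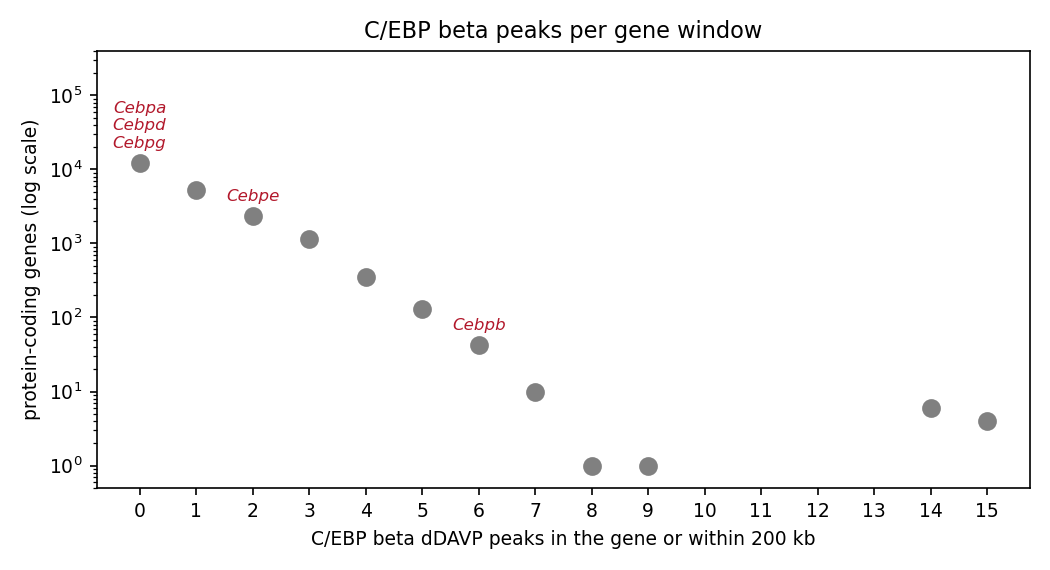
Number of protein-coding genes (log scale) by the number of C/EBP beta dDAVP peaks in the gene or within 200 kb, with the C/EBP family genes written above their count. Cebpb stands at 6, where 42 genes fall, Cebpe at 2, and Cebpa, Cebpd and Cebpg at 0 with 12369 genes.

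Cebpa and Cebpg, which encode the differentiation factor C/EBP alpha and the short partner protein C/EBP gamma, had no peak of either factor in their windows. The genes are neighbours, 62726 bp apart on chromosome 7 (Cebpg from 35046422 to 35056566, Cebpa from 35119293 to 35121928), and share 337 kb of their windows, so they are not independent observations. Just outside the windows, a C/EBP beta dDAVP peak of score 107 lay inside Rhpn2, a rhophilin gene, 241 kb past Cebpa and 306 kb past Cebpg. That distance was matched or bettered by 47.0% and 52.9% of protein-coding genes. The nearest vehicle peak was 11886 kb from Cebpa and 11952 kb from Cebpg. CREB1 peaks were at least 3149 kb from either gene in both treatments, the nearest overlapping Pop4, a gene for a subunit of ribonuclease P.

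Cebpd encodes C/EBP delta, another acute phase factor, and lies on chromosome 16 from 15887286 to 15889545, overlapping Spidr at its higher-coordinate end. C/EBP beta was not called within 200 kb of it. The nearest C/EBP beta peak was 1007 kb away after dDAVP, overlapping Ppm1f, and 2219 kb away after vehicle. For dDAVP this was farther than for most genes, since 79.3% had a peak as near or nearer.

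CREB1 was called once in the Cebpd window, in both treatments, 23.7 kb before the gene's lower-coordinate end. The peak spanned 225 bp after dDAVP (chr16:15863332-15863556) and 375 bp after vehicle (chr16:15863232-15863606), the first lying within the second. It covered the higher-coordinate end of Mzt2, a mitotic spindle gene, and the first bases of the lncRNA gene Gm41425, and so stood at neighbours of Cebpd. A CREB1 peak lay in the gene or within 200 kb for 15.6% of protein-coding genes after dDAVP and for 25.9% after vehicle. As close as Cebpd were 4.93% of genes after dDAVP and 9.0% after vehicle.

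Cebpe encodes C/EBP epsilon, known from granulocyte maturation, and lies on chromosome 14 from 54710363 to 54712174 in a gene-dense window with 17 other protein-coding genes. Its window held 2 C/EBP beta peaks after dDAVP and none after vehicle, and no CREB1 peak after dDAVP and 2 after vehicle. All 4 were near the window's edges, 182 to 193 kb from Cebpe, and at the promoters or ends of Prmt5 and Pabpn1. The members just inside the 200 kb limit were thus these peaks, and the first beyond it was a C/EBP beta dDAVP peak of score 535 at 248 kb, 1602 bp from Lrp10.

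At Prmt5, an arginine methyltransferase gene, peaks of the 2 factors overlapped before the start, C/EBP beta after dDAVP and CREB1 after vehicle. Only the CREB1 peak reached the start itself. The C/EBP beta dDAVP peak (chr14:54517626-54517838, score 160) began 156 bp before the gene and covered n-TRacg6, an arginine tRNA gene of 73 bp. The CREB1 vehicle peak (chr14:54517404-54517661) covered the gene's start, which is its higher-coordinate end. The 2 peaks shared 36 bp, from 191 to 156 bases before the Prmt5 start. This was the single overlap of the factors in the 5 windows, 1 of 8 C/EBP beta dDAVP peaks (12.5%, exact interval 0.316 to 52.7), beside 50 of 2401 in the whole list (2.08%, 1.55 to 2.74). In the Cebpb window it was 0 of 6 (0 to 45.9). These intervals, too, treat peaks of the same window as independent. The promoter is printed because peaks of both factors cover part of it (chr14:54517471-54517720, minus strand, RefSeq, GRCm38.p6), with TGACG in capitals.
Prmt5: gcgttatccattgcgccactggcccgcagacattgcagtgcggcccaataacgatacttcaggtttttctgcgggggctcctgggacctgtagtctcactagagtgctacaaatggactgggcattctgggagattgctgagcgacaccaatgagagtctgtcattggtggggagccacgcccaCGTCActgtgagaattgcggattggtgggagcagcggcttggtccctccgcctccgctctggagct
It held TGACG once, on the opposite strand from 66 bases before the start, within the CREB1 peak and outside the C/EBP beta peak. The 4 longer motifs and the 8-base form had 0 matches in it. It does hold TTGCGCCA, the near match named above for Cebpa, in the part that the C/EBP beta peak covers. Near matches were not counted, so these counts do not show that C/EBP sites are absent there. The CREB1 peak covered 191 of the 250 bases and the C/EBP beta peak 95.

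The other pair lay around Pabpn1, a nuclear poly(A)-binding protein gene, without touching each other. The C/EBP beta dDAVP peak (chr14:54900397-54900657, score 160) lay 1470 bp past the gene's higher-coordinate end. The CREB1 vehicle peak (chr14:54893722-54893986) lay 157 bp before its start. None of the 4 peaks in the Cebpe window was nearest to Cebpe itself, and both C/EBP beta peaks scored under the list median of 197.

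**Figure D5:**
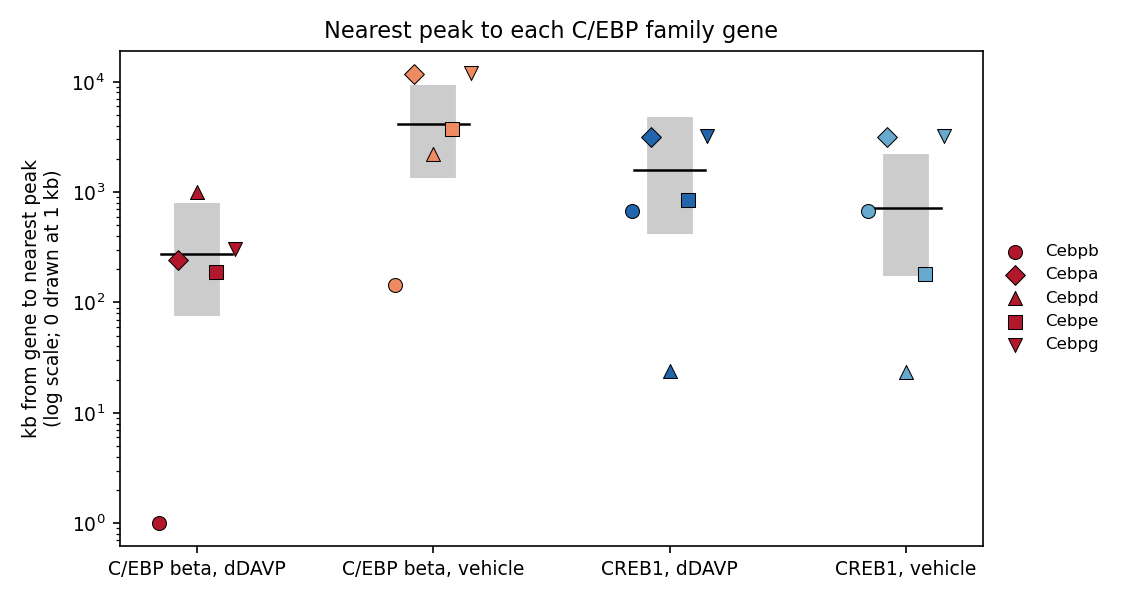
Distance in kb (log scale, 0 drawn at 1 kb) from each C/EBP family gene to the nearest peak of each list, with grey bars for the middle 50% of all protein-coding genes and black lines for their median. Cebpb is at 0 kb after dDAVP and 143 kb after vehicle for C/EBP beta, below the bars, and Cebpd is at 23.7 kb in both CREB1 lists.

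By gene, then, C/EBP beta dDAVP peaks were in the windows of 2 of the 5 family genes, beside 42.8% of all protein-coding genes, and vehicle peaks in that of 1, beside 5.86%. CREB1 peaks were in the windows of 1 gene after dDAVP and 2 after vehicle, beside 15.6% and 25.9%. In order of distance to C/EBP beta after dDAVP the genes ran Cebpb (0 kb), Cebpe (188 kb), Cebpa (241 kb), Cebpg (306 kb) and Cebpd (1007 kb). The median of all genes was 272 kb. After vehicle the order was Cebpb (143 kb), Cebpd (2219 kb), Cebpe (3766 kb), Cebpa (11886 kb) and Cebpg (11952 kb), with a median of 4165 kb. Cebpb was first in both. In the upper 50% of scores the dDAVP order changed to Cebpb (69.5 kb), Cebpe (248 kb), Cebpd (2219 kb), Cebpa (6271 kb) and Cebpg (6337 kb), and the vehicle order did not. Distances have no replicate error, so neighbours in these orders cannot be told apart or ranked beyond the lists themselves.

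Genes that act with the C/EBP family were set beside its own members. These lists were chosen with earlier results of these data known, so their counts are descriptions and not tests. Among 16 leucine zipper partners, C/EBP beta peaks lay in the gene or within 5 kb at 5 after dDAVP, namely Atf3, Nfe2l2, Atf4, Ddit3 and Atf5, beside 7.88% of all genes. After vehicle they lay at 2, Nfe2l2, which encodes NRF2 of the oxidative response, and Ddit3, beside 0.786%. Ddit3 encodes CHOP, a C/EBP relative that dimerises with C/EBP beta, and its peak lay 141 bp from the gene after dDAVP and 206 bp after vehicle. CREB1 peaks lay at Fos after dDAVP, beside 2.74% of genes, and at Creb1, Junb, Fos and Atf4 after vehicle, beside 5.20%.

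Among 13 genes listed as regulators of C/EBP proteins, those with a C/EBP beta peak after dDAVP included Trib3, Trib1, Smarca2 and Cdk2. Those with one after vehicle were Trib1 and Smarca2. The shares of all genes were 7.88% and 0.786%. Trib1 encodes a pseudokinase that directs C/EBP proteins to degradation, and Smarca2 an ATPase of SWI/SNF remodelling. CREB1 peaks lay at 2 of the 13 after dDAVP, Fbxw7 and Crebbp, and at these and Cdk2 after vehicle, beside 2.74% and 5.2% of all genes. Of 14 genes known to act upstream of Cebpb, a C/EBP beta peak lay at Myb after dDAVP and at 0 after vehicle. A CREB1 peak lay at 0 of them after dDAVP and at Creb1 after vehicle. The gene Nfil3, whose factor reads sites like those of C/EBP, was 1 of 4 such genes with a C/EBP beta peak after dDAVP, and the 4 had no peak in the other 3 lists. The 12 C/EBP target genes of fat and liver, such as Pparg and Alb, had 0 in every list, as had Cebpz and Cebpzos, which share the name without being C/EBP factors. Beside those shares of all genes (7.88% and 0.786% for C/EBP beta, 2.74% and 5.2% for CREB1, after dDAVP and after vehicle in each pair), counts of 0 or 1 in lists this short were near the background.

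The genes most like Cebpb in their distances to the nearest peak over the 4 lists were Abraxas1, Smco4 and Apip. Likeness was the Euclidean distance of log10(1 + bp) over the 4 lists, among 20654 genes, and was 0.112, 0.113 and 0.168 for these. Each was overlapped by a C/EBP beta dDAVP peak, and the nearest vehicle peaks were 172 kb, 110.4 kb and 211 kb away. Their windows held 2 C/EBP beta dDAVP peaks each, so they matched Cebpb in nearest distance and not in number. The single most similar genes were St8sia3 for Cebpa, Sec24d for Cebpd, Aplf for Cebpe and Tmem243 for Cebpg.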

How the data were processed

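The 4 deposited peak lists, 1 per antibody and treatment, were analysed as given. BWA, SAMtools, MACS2, bedtools and build mm10 are named in the submitters' processing notes, without versions or roles. The sources used here do not give how replicates were combined. The C/EBP beta lists carry a score per peak, deposited by the authors without a stated scale; per the names in the files, these peaks are of replicate 1, with a bandwidth of 300. Depth is unknown. Genes came from a RefSeq table of GRCm38.p6, which gives neither exons nor, outside the promoter table, strand.

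Distances were gaps between peak and gene (0 if overlapping), and peaks overlapped at 1 bp or more. Counting was tested on simulated peaks. Python 3.11.15, pandas 2.3.3 and scipy 1.17.1 were used. No test over replicates was possible. The members and lists were chosen with earlier results of these data known. Named were all members, their peaks and neighbours, the 3 genes most like Cebpb and 1 per other member (none within 400 kb), and listed genes with a peak within 5 kb. A result for a listed gene is not reported here. Planned protein comparisons and motif searches in peaks were not run, and no protein sequence was used. The sequence used here was that of RefSeq promoters, so sequence under a peak was read only where it lay in a promoter.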

Additional observations from a re-analysis of the deposited data

How the results depend on the processing

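No paired analysis was possible because each group has 1 list without replicate values, and for the same reason no replicate could be left out. Of 62 alternatives for the counts, 40 stayed within 1.5 times the reported count. The number of family genes with a C/EBP beta dDAVP peak (2 at 200 kb) was 1 at 50 and 100 kb, 4 at 500 kb, and 1 in the upper 50% of scores or with the list reduced to 209 peaks. The number of such peaks (8) was 2 at 50 kb, 4 at 100 kb, 13 at 500 kb, and 2 in the upper 50% of scores or in the reduced list. For C/EBP beta after vehicle, genes and peaks (1 each) were 0 at 50 and 100 kb. For CREB1 after vehicle, genes (2) and peaks (3) were 1 at 50 and 100 kb. The peaks shared by the C/EBP beta lists (1) were 0 at 50 and 100 kb. The overlap of both factors at Prmt5 (1) was 0 when 50% of the shorter peak had to overlap. With non-coding genes included, 1 peak in place of 4 was nearest to a family gene. Among 30 alternatives for single distances, 22 stayed within 1.5 times; in the upper 50% of scores the nearest C/EBP beta dDAVP peak was 69.5 kb from Cebpb, 6271 kb from Cebpa, 6337 kb from Cebpg and 2219 kb from Cebpd. Peaks under 100 bp and the peak centre changed no count. Depth is unknown and limits every missing call.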

Other observations

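The 3 other loci with 6 consecutive C/EBP beta dDAVP peaks as close together as at Cebpb were on chromosomes 15, 12 and 6. On chromosome 15 (66969545 to 67101750), 6 peaks with scores of 102 to 1994 included the gene Ndrg1, and 1 overlapped a vehicle peak. On chromosome 12 (86800675 to 86895313), 7 peaks with scores of 67 to 1130 included Irf2bpl, and 1 overlapped a vehicle peak. At Cebpb, likewise, 1 of 6 overlapped a vehicle peak, and scores ran from 55 to 1378. On chromosome 6 (47654946 to 47772154), 14 peaks had a median spacing of 4.33 kb and scores of 116 to 261, and 0 overlapped a vehicle peak. The spacing there ran from 4.26 to 54.6 kb. The median spacing was 13.5 kb at Irf2bpl, 20.1 kb at Ndrg1 and 20.6 kb at Cebpb. These loci were found by the spacing itself, and no test was made of them.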
